A study of Mus musculus with 6 samples.

Results

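A set of 10 genes of the MHC class II antigen presentation pathway were followed in mouse bone marrow cells positive for c-Kit. This receptor is carried mainly by stem and progenitor cells of the blood. The members were chosen by name: the antigen-binding chains H2-Aa, H2-Ab1 and H2-Eb1, the invariant chain Cd74, the activator Ciita, the peptide-exchange chains H2-DMa, H2-DMb1 and H2-DMb2, and the exchange inhibitors H2-Oa and H2-Ob. All 10 were among the 20097 genes listed in the deposited files, and all 10 passed the filter on low values that left 15410 genes for testing. RNA was sequenced from 3 libraries with the genotype label WT and 3 with the genotype label Runx1 KO. KO stands for knockout, and Runx1 encodes a transcription factor of blood formation. The labels give no age, sex, strain, number of animals per library or way of disrupting Runx1, and nothing in them says that the libraries of a group came from separate animals, so the p-values measure the spread between these samples.

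Over the listed genes each library had between 23297526 and 26793380 reads, recovered as described with the processing. The transcript of the targeted gene was not lost: Runx1 had 3031, 2799 and 3497 normalised reads in the WT-labelled libraries and 6648, 6720 and 5830 in those labelled Runx1 KO (log2 change 1.04, SE 0.10, limma adjusted p 0.00163). A total per gene does not tell whether some exon is missing, so the groups are named by their labels, and a change is always given as Runx1 KO minus WT by label. Kit, the defining marker of the sort, differed between the groups, with 8301 ± 280 and 12649 ± 1093 normalised reads under the labels WT and Runx1 KO (SD, n = 3; log2 change 0.60, SE 0.07, limma adjusted p 0.00346). A normalised read is a gene's read count divided by a size factor of its library, and log2 changes are on the log2(normalised read + 1) scale.

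MHC class II molecules are pairs of an alpha and a beta chain that carry peptides from endosomes to the surface of antigen-presenting cells, where helper T cells read them. The invariant chain fills the groove until endosomal proteases cut it away, H2-DM then exchanges the remaining fragment for peptide, and H2-O holds H2-DM back. B cells, dendritic cells and macrophages are the main cells that use this pathway in bone marrow, and CIITA, which is recruited to a shared X and Y box module upstream of these genes, switches them on together.

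The module is shown for the 6 members in whose RefSeq promoter windows (GRCm38.p6, 250 bases before to 50 after a start site) a script placed it, since it is the sequence through which the activator reaches these genes. Windows were given for 7 of the 10 members; H2-Ab1, Cd74 and Ciita had none. Capitals mark the 9 bases of the X box core and the 5 bases of the Y box, written 5′ to 3′ on the strand of the gene:
H2-Aa: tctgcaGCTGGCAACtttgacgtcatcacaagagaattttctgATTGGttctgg
H2-Eb1: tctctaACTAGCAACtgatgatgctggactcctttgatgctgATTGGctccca
H2-DMb1: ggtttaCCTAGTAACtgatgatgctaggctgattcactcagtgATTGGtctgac
H2-DMb2: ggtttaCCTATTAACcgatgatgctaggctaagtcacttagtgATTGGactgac
H2-Oa: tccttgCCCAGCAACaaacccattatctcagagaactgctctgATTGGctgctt
H2-Ob: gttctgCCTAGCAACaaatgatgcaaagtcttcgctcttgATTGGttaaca

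These stretches lie at chr17:34287861-34287914 on the minus strand (H2-Aa) and, on the plus strand, at chr17:34305766-34305818 (H2-Eb1), chr17:34153087-34153140 (H2-DMb1), chr17:34145116-34145169 (H2-DMb2), chr17:34092293-34092346 (H2-Oa) and chr17:34238808-34238858 (H2-Ob). Between 25 and 28 bases separate the marked X and Y boxes in the 6 genes. The letters CCNNGNAAC, searched on both strands as the X box core, matched 4 of the 8 member windows and 15.1% of 32851 windows of all genes, and followed by ATTGG within 40 bases on the same strand they matched 3 of 8 and 0.651%. With the short form CNNGNAAC, added after the windows were seen, 5 of the 8 windows and 1.6% of all windows held the pair. Counted from 1 at the first capital, the X box core of H2-DMb2 differs from that of its neighbour H2-DMb1 by G5T, so neither form of the motif matched it, and its stretch was found with the looser letters CNNNNAAC followed by ATTGG. The letters TGNGGT, a RUNX motif, matched 6 of the 8 windows on either strand, against 45.8% of all windows. These matches describe letters and are not measured sites.

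Of the 10 class II genes, 1 passed the test (limma, adjusted p under 0.05 after adjustment over the whole table), and it was lower. Over all genes tested the share called was 21.9%, with 10.6% higher and 11.3% lower (1631 and 1739 genes; with library totals, 2383 and 1372). The gene was H2-DMb2, a beta chain of the exchange factor, at 0.344 of its mean in the libraries labelled WT. The median log2 change was 0.02 over the 10 genes and -0.0042 over all genes tested, with 5 of the 10 above 0. In 1 of the 10 the groups did not overlap, where 43.3% of all genes tested had groups that did not overlap. An unadjusted limma p under 0.05 was reached by 2 of the 10 (H2-DMb2 and Cd74) and by 37.7% of all genes tested.

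**Figure D1:**
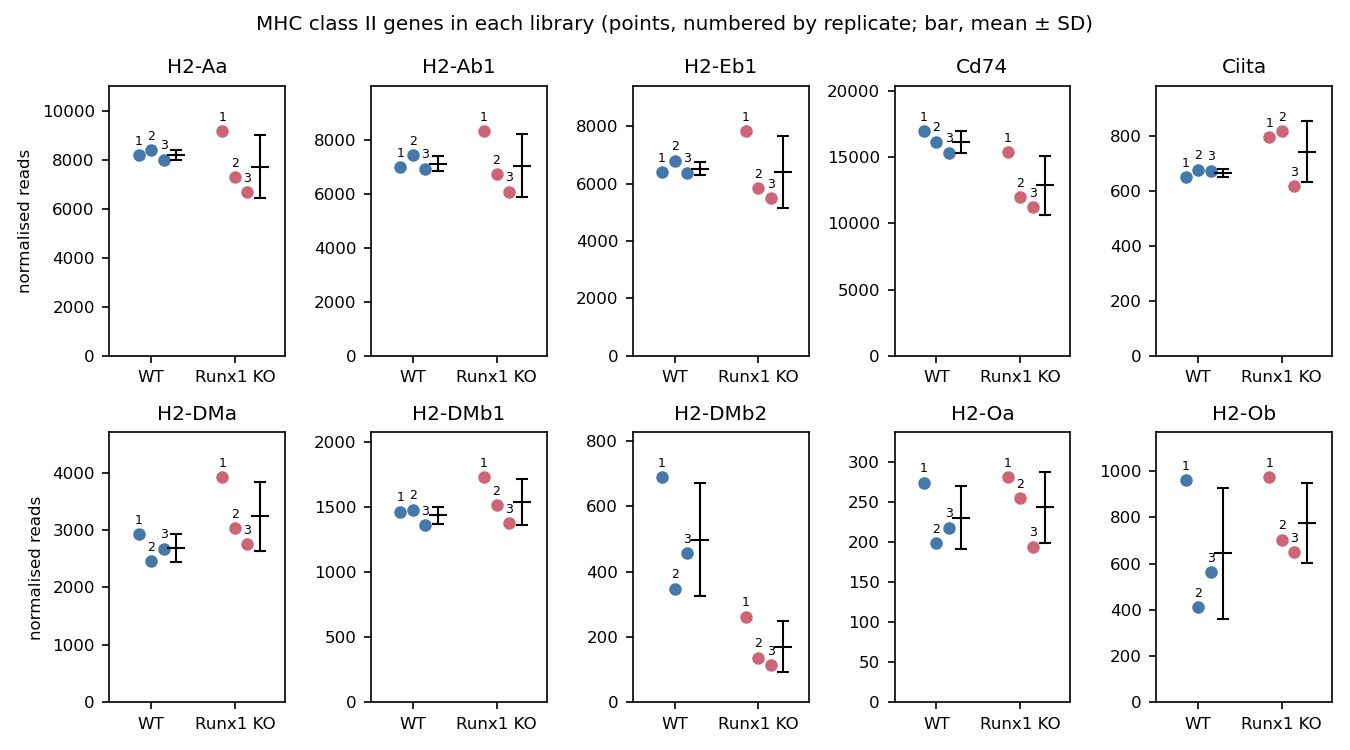
Normalised reads of the 10 class II genes in each library (vertical axes start at 0; blue points WT, red points Runx1 KO, numbered by replicate; bars, mean ± SD, n = 3). H2-DMb2 is the gene whose groups stand apart, at 348 to 688 against 114 to 262, while the red points of the antigen-binding chains lie on both sides of the blue ones.

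The antigen-binding chains were abundant in both groups. H2-Aa (chromosome 17, 34282744 to 34287823, minus strand), the alpha chain of the I-A molecule, had 8211, 8418 and 8018 normalised reads in the WT-labelled libraries and 9200, 7319 and 6702 in those labelled Runx1 KO. The groups overlapped, with Runx1 KO replicate 1 above and replicates 2 and 3 below every library labelled WT. Its log2 change was -0.10 (SE 0.11, 95% interval from -0.37 to 0.17, limma adjusted p 0.561). H2-Ab1 (chromosome 17, 34257689 to 34269419, plus strand), the beta chain that pairs with it, had 6993, 7424 and 6930 against 8327, 6718 and 6074. H2-Eb1 (chromosome 17, 34305867 to 34316674, plus strand), the beta chain of the I-E molecule, had 6392, 6789 and 6371 against 7828, 5846 and 5497. Both overlapped in the same pattern, with replicate 1 highest under the label Runx1 KO and replicate 3 lowest. Their log2 changes were -0.03 (95% interval from -0.29 to 0.24) and -0.05 (from -0.35 to 0.26), with limma adjusted p values of 0.881 and 0.826; scaling by library totals, which moved the median of all genes to 0.08, turned these to 0.05 and 0.04.

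These chains varied little among the libraries labelled WT. The highest library was 1.05 times the lowest for H2-Aa, 1.07 times for H2-Ab1 and 1.07 times for H2-Eb1. Among the libraries labelled Runx1 KO the same ratios were 1.37, 1.37 and 1.42. Without Runx1 KO replicate 1, H2-Aa was lower by limma (log2 change -0.23, adjusted p 0.0483), H2-Ab1 was at -0.155 and H2-Eb1 at -0.20, and 3 of the 10 genes passed in place of 1: H2-Aa, Cd74 and H2-DMb2. That fit called 3551 of all 15410 genes tested, against 3370 with all libraries.

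Cd74, which encodes the invariant chain and lies on chromosome 18, was the most abundant of the 10. It had 16960, 16159 and 15332 normalised reads in the WT-labelled libraries and 15366, 11975 and 11217 in those labelled Runx1 KO. The groups overlapped by a narrow margin, between WT replicate 3 and Runx1 KO replicate 1. Its log2 change of -0.34 (SE 0.12, 95% interval from -0.62 to -0.06) did not pass by limma (adjusted p 0.0799). DESeq2 on recovered reads gave an adjusted p of 0.0334, edgeR on the same reads 0.104 and limma with library totals 0.136. With the replicate number as a block it was 0.0264 in limma and 0.0334 in edgeR. Without Runx1 KO replicate 1 the log2 change was -0.48, with a limma adjusted p of 0.00692.

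Set against the antigen-binding chain of the same library, Cd74 separated the labels. Cd74 reads per H2-Aa read were 2.07, 1.92 and 1.91 in the WT-labelled group (mean 1.97 ± 0.0865, SD, n = 3) and 1.67, 1.64 and 1.67 in those labelled Runx1 KO (1.66 ± 0.0207). The groups did not overlap, and Runx1 KO replicate 1, the highest of its group in level, lay between the other two in this ratio. Of the 6 ratios between class II genes that were computed, all chosen after the values were seen, groups did not overlap in 3 (Cd74 per H2-Aa, H2-DMa per H2-Aa and H2-Aa per H2-Ab1) and overlapped in 3 (H2-Eb1 per H2-Ab1, H2-DMa per H2-Oa and H2-Ob per H2-Oa). The ratio H2-Aa per H2-Ab1 separated at means of 1.15 and 1.10 under the labels WT and Runx1 KO. The share of such ratios over all genes that separate was not computed. In level, 43.3% of all genes tested had groups that did not overlap. The ratio of Cd74 is given without a test. The smallest two-sided p of an exact permutation test of 3 against 3 libraries is 0.1.

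Ciita (chromosome 16, 10480059 to 10528418, plus strand), the co-activator on which expression of these genes depends, had 651, 678 and 673 normalised reads in the libraries labelled WT. In those labelled Runx1 KO it had 795, 819 and 617. The groups overlapped, with replicates 1 and 2 above and replicate 3 below the libraries labelled WT. Its log2 change was 0.14 (95% interval from -0.13 to 0.42, limma adjusted p 0.413). Ciita is read from several promoters that serve different cell types, and values per gene do not separate them. Dexi is annotated on the opposite strand over 25888 bases of the Ciita locus and rose from 208 ± 36.2 to 311 ± 3.41 normalised reads (SD, n = 3; limma log2 change 0.60, SE 0.15, adjusted p 0.0302); the libraries were strand-specific, but whether counting used the strand is not given in the sources used here.

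The peptide-exchange factor showed a split between its beta chains. H2-DMa (chromosome 17, 34119541 to 34139101, plus strand), its alpha chain, had 2930, 2452 and 2674 normalised reads under the label WT and 3913, 3035 and 2756 under the label Runx1 KO. H2-DMb1 (chromosome 17, 34153072 to 34160230, plus strand), the more abundant beta chain, had 1464, 1480 and 1359 against 1726, 1511 and 1373. The groups overlapped in both genes. Their log2 changes were 0.26 (SE 0.14, 95% interval from -0.06 to 0.57, limma adjusted p 0.211) and 0.09 (SE 0.09, from -0.13 to 0.32, adjusted p 0.503). The annotated H2-DMa gene shares 3094 bases with Brd2 on the opposite strand, whose 12750 ± 968 and 11920 ± 400 normalised reads (SD, n = 3) did not pass the test (limma adjusted p 0.359).

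H2-DMb2 (chromosome 17, 34143307 to 34151555, plus strand), the other beta chain, had 688, 348 and 457 normalised reads in the WT-labelled group (mean 497 ± 173, SD, n = 3). In those labelled Runx1 KO it had 262, 137 and 114 (171 ± 79.3). The groups did not overlap, with WT replicate 2 and Runx1 KO replicate 1 nearest to each other. The fall was -1.57 on the log2 scale (SE 0.36, 95% interval from -2.41 to -0.73, limma adjusted p 0.0227). It lost its call without WT replicate 1 (-1.31, adjusted p 0.0551), WT replicate 3 (-1.61, 0.0591), Runx1 KO replicate 2 (-1.46, 0.085) or Runx1 KO replicate 3 (-1.33, 0.0718) by limma, and kept its direction in each. Without Runx1 KO replicate 1, the highest of its group, the log2 change was -1.93 (limma adjusted p 0.00698).

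The same values can be read as the share of the beta chains, a measure chosen after the values were seen. Reads of H2-DMb2 made up 32.0%, 19.0% and 25.1% of the reads of both genes in WT replicates 1 to 3 (Wilson 95% intervals from 30.0% to 33.9%, 17.3% to 20.9% and 23.2% to 27.1%). They made up 13.2%, 8.30% and 7.69% in Runx1 KO replicates 1 to 3 (from 11.7% to 14.8%, 7.07% to 9.72% and 6.44% to 9.15%). The groups did not overlap, and the means were 25.4% ± 6.46 and 9.71% ± 3.00 (SD, n = 3), a difference with an exact two-sided permutation p of 0.1, the smallest that 3 against 3 can give. The intervals cover counting error only. The copies resemble each other: of the 50-base windows in annotated H2-DMb2 transcripts, 21.2% also occur exactly in H2-DMb1, and 10.3% of 100-base windows do, so the split of reads between them is uncertain to the extent that the counting assigned or dropped such reads.

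The inhibitor chains were low and variable. H2-Oa (chromosome 17, 34092340 to 34095234, plus strand), the alpha chain of H2-O, had 274, 199 and 218 normalised reads under the label WT and 280, 255 and 194 under the label Runx1 KO. H2-Ob (chromosome 17, 34238903 to 34254414, plus strand), its beta chain, had 961, 411 and 564 against 973, 704 and 648. WT replicate 1 was highest of its group in both genes and WT replicate 2 lowest, and the groups overlapped. Their log2 changes were 0.07 (95% interval from -0.36 to 0.51, limma adjusted p 0.801) and 0.33 (from -0.39 to 1.06, adjusted p 0.468). The interval of H2-Ob reaches past a log2 unit on its upper side, and its log2 change was 0.05 without WT replicate 2 and 0.66 without WT replicate 1 (limma adjusted p 0.083). H2-Oa turned to -0.02 without WT replicate 2 and to -0.04 without Runx1 KO replicate 1.

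Per kilobase of annotated exon, the order of mean levels in the libraries labelled WT ran from Cd74 (9619 normalised reads per kilobase) through H2-Eb1 (3353), H2-Ab1 (2771), H2-Aa (2163), H2-DMb1 (853), H2-DMa (779), H2-DMb2 (285), H2-Oa (164) and H2-Ob (120) to Ciita (70.0). H2-DMb1 and H2-DMa overlapped in range, as did H2-Oa and H2-Ob, and the other neighbours in this order did not. In the libraries labelled Runx1 KO, H2-DMb2 stood ninth at 97.8 normalised reads per kilobase, below H2-Oa at 173 and H2-Ob at 144, but its range overlapped those of H2-Oa, H2-Ob and Ciita there. These levels use the union of exons in GENCODE M21, which overstates the length of genes with rarely used exons.

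Relative to the mean of the 3 antigen-binding chains in the same library, Cd74 moved by -0.28 and H2-DMb2 by -1.52 on the log2 scale, and H2-DMa by 0.31 and H2-DMb1 by 0.15, each with groups that did not overlap. H2-Aa, itself 1 of the 3 chains, moved by -0.04, also with groups that did not overlap. The groups of H2-Ab1, H2-Eb1, Ciita, H2-Oa and H2-Ob overlapped. The share of all genes that separate on this scale was not computed, and in level it was 43.3% of all genes tested. H2-DMa reads per H2-Aa read were 0.357, 0.291 and 0.334 under the label WT and 0.425, 0.415 and 0.411 under the label Runx1 KO. These differences share a denominator, were computed after the values were seen and carry no test.

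Along the class II region of chromosome 17 the changes did not run as a block. Of 8 neighbours chosen by position, 6 were tested, of which 2 rose, 1 fell and 3 did not pass. Over all genes tested 21.9% were called. H2-Ea, annotated as H2-Ea-ps, was not among the genes listed in the deposited files. Btnl2, at 5.23 to 13.8 normalised reads, was below the filter. Tap1, a peptide transporter of the class I pathway that lies within the region, rose from 4590 ± 345 to 7548 ± 1008 normalised reads (SD, n = 3; log2 change 0.71, SE 0.11, limma adjusted p 0.00663). Psmb9, an immunoproteasome subunit next to it, rose by 0.41 (SE 0.09, limma adjusted p 0.0211), a call lost without WT replicate 1 (0.0546) or 3 (0.0629) or Runx1 KO replicate 2 (0.0852). H2-Eb2, a weakly expressed class II beta chain gene beside H2-Eb1, had 46.5, 39.4 and 61.4 normalised reads against 32.4, 16.8 and 19.9. Its fall of -1.09 (SE 0.31) passed by limma (adjusted p 0.0463) but not by edgeR on recovered reads (0.0532), and by limma only the fit without Runx1 KO replicate 1 kept the call among the 6 that left out a library (adjusted p up to 0.147).

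**Figure D2:**
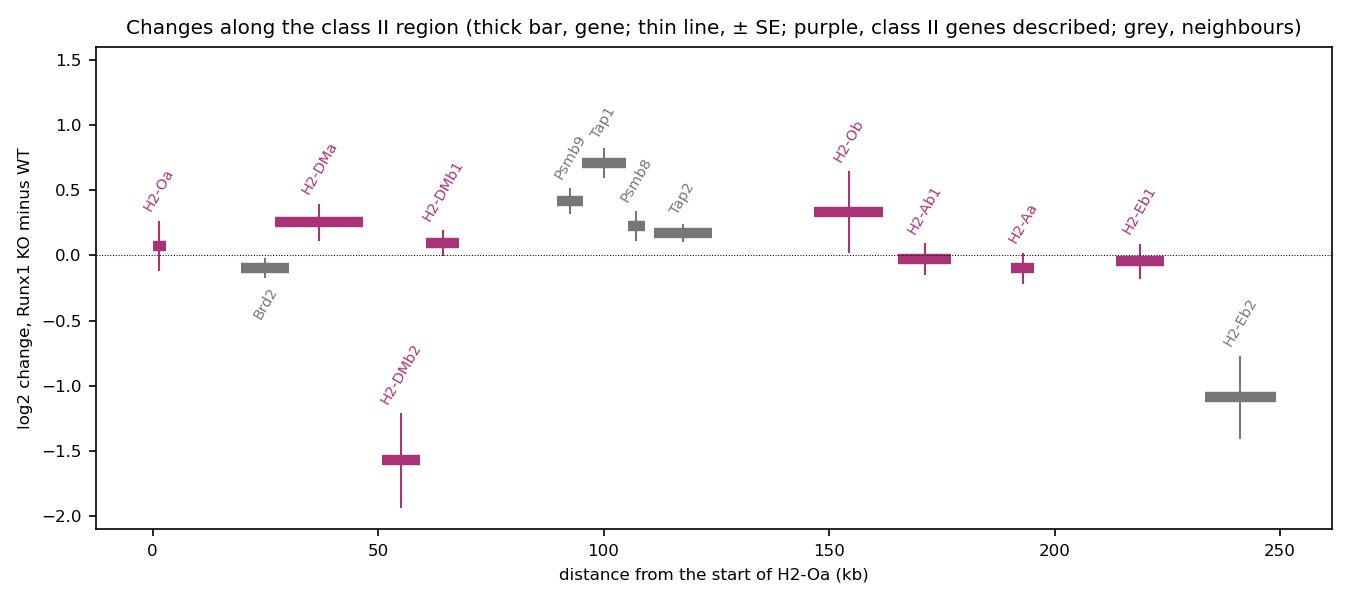
Log2 change (Runx1 KO minus WT) of the tested genes of the class II region against their distance from the start of H2-Oa in kb; thick bars span the genes, thin lines are ± SE, purple marks class II genes described here and grey their neighbours. H2-DMb2 at -1.57 lies between H2-DMa at 0.26 and H2-DMb1 at 0.09, and Tap1 stands at 0.71.

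Factors that occupy the X and Y boxes were called at about the share of all genes (21.9%). Of 10 genes for RFX, NF-Y and CREB factors and coactivators, 2 rose, 0 fell and 8 did not pass, with a median log2 change of 0.06. Rfx5, which binds the X box, had 776, 631 and 811 normalised reads under the label WT and 1136, 1015 and 993 under the label Runx1 KO. It rose by 0.51 (SE 0.11, limma adjusted p 0.0214), a call lost without Runx1 KO replicate 2 (adjusted p 0.0702) or replicate 3 (0.0522). Nfya, a subunit of the factor that binds the Y box, rose by 0.26 (SE 0.07, limma adjusted p 0.0334), a call lost without WT replicate 1 or 2 or Runx1 KO replicate 2 or 3 (adjusted p up to 0.127).

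Among 14 genes known to act upstream of Ciita, 4 rose, 2 fell and 8 did not pass, with a median log2 change of -0.04. Over all genes tested 10.6% rose and 11.3% fell. Irf1, an interferon-induced factor that drives Ciita, rose from 2430.5 ± 259 to 3714 ± 718 normalised reads (SD, n = 3; log2 change 0.60, SE 0.15, limma adjusted p 0.0342), a call lost in 4 of the 6 leave-one-out fits (without WT replicates 2 or 3, or Runx1 KO replicates 1 or 2). Also among those that rose, and named after their values were seen, were the interferon gamma receptor gene Ifngr1 (log2 change 0.27) and the kinase gene Jak2 (0.22). Irf4, a factor of B cells and dendritic cells, had 5487, 703 and 1213 normalised reads under the label WT and 174, 34.7 and 52.7 under the label Runx1 KO, a fall of -4.59 (SE 0.85, limma adjusted p 0.0117). Spi1, which encodes PU.1, fell by -0.36 (SE 0.10, limma adjusted p 0.0403; edgeR 0.0518), and among the fits that left out a library only the one without Runx1 KO replicate 1 kept this call (limma adjusted p up to 0.139 in the others).

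A list of 14 interferon-stimulated genes, 11 of which rose and 0 fell, had a summed level of 8687 to 9693 normalised reads under the label WT and of 18799 to 26045 under the label Runx1 KO. Of all genes tested, 10.6% rose. The part of this list in the values of Irf1, Tap1 and Psmb9 was not tested.

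Among 12 genes of endosomal processing 1 rose, 7 fell and 4 did not pass, with a median log2 change of -0.29. The share called over all genes tested was 21.9%. Ctsh, a cathepsin of the endosome, fell from 3140 ± 346 to 1403 ± 362 normalised reads (SD, n = 3; log2 change -1.19, SE 0.17, limma adjusted p 0.00575). Ctse, an aspartic protease, fell by 1.10 on the log2 scale (SE 0.17, limma adjusted p 0.00618), and Ifi30, the thiol reductase that opens disulphide bonds of antigens, fell by 0.77 (SE 0.16, adjusted p 0.0174), a call lost without Runx1 KO replicate 2 (0.0706) or 3 (0.0581). Ctsf, a protease able to cut the invariant chain in macrophages, rose from 128 ± 17.1 to 256 ± 33.7 normalised reads (SD, n = 3; log2 change 0.99, SE 0.16, limma adjusted p 0.00781). Ctss, the main protease of the invariant chain in B cells and dendritic cells, had 5304, 5287 and 5557 against 5445, 4093 and 3746 and did not pass (log2 change -0.30, limma adjusted p 0.144). Monocyte and macrophage markers lay lower in the same libraries: 4 of 10 fell and 0 rose, with summed levels of 46800 to 47459 against 28555 to 36005 normalised reads, and their part in the endosomal values was not tested. Adgre1, which encodes the macrophage antigen F4/80, fell by 0.59 on the log2 scale (limma adjusted p 0.0205), a call lost without WT replicate 2 or 3 or Runx1 KO replicate 3 (up to 0.0642). Csf1r, the receptor for macrophage growth factor, and C1qa, a complement chain of macrophages, did not pass (log2 changes -0.34 and -0.53, limma adjusted p 0.176 and 0.11).

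Turnover and costimulation genes were called at about the share of all genes (21.9%). They gave 2 falls and 0 rises among 8 genes, with a median log2 change of -0.77. Cd83, which protects class II molecules at the surface, had 693, 542 and 636 normalised reads under the label WT and 328, 189 and 236 under the label Runx1 KO, a fall of -1.34 (SE 0.21, limma adjusted p 0.00667). March1, the ubiquitin ligase that removes class II molecules from the surface, had 1131, 556 and 698 against 456, 271 and 258, a fall of -1.26 (SE 0.31, limma adjusted p 0.0297). The call of March1 was lost in 4 of the 6 leave-one-out fits (without WT replicates 1 or 3, or Runx1 KO replicates 2 or 3), with adjusted p values up to 0.104. Cd86, a costimulatory ligand, was at 288, 311 and 247 against 339, 223 and 267, with a limma adjusted p of 0.874. Named after their values were seen, Cd80, Cd40 and Icosl lay lower with groups that did not overlap. None of them passed (limma adjusted p 0.0559, 0.153 and 0.0852). In the list the groups did not overlap in 5 of 8 genes, against 43.3% of all genes tested, and 1 log2 change was above 0.

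**Figure D3:**
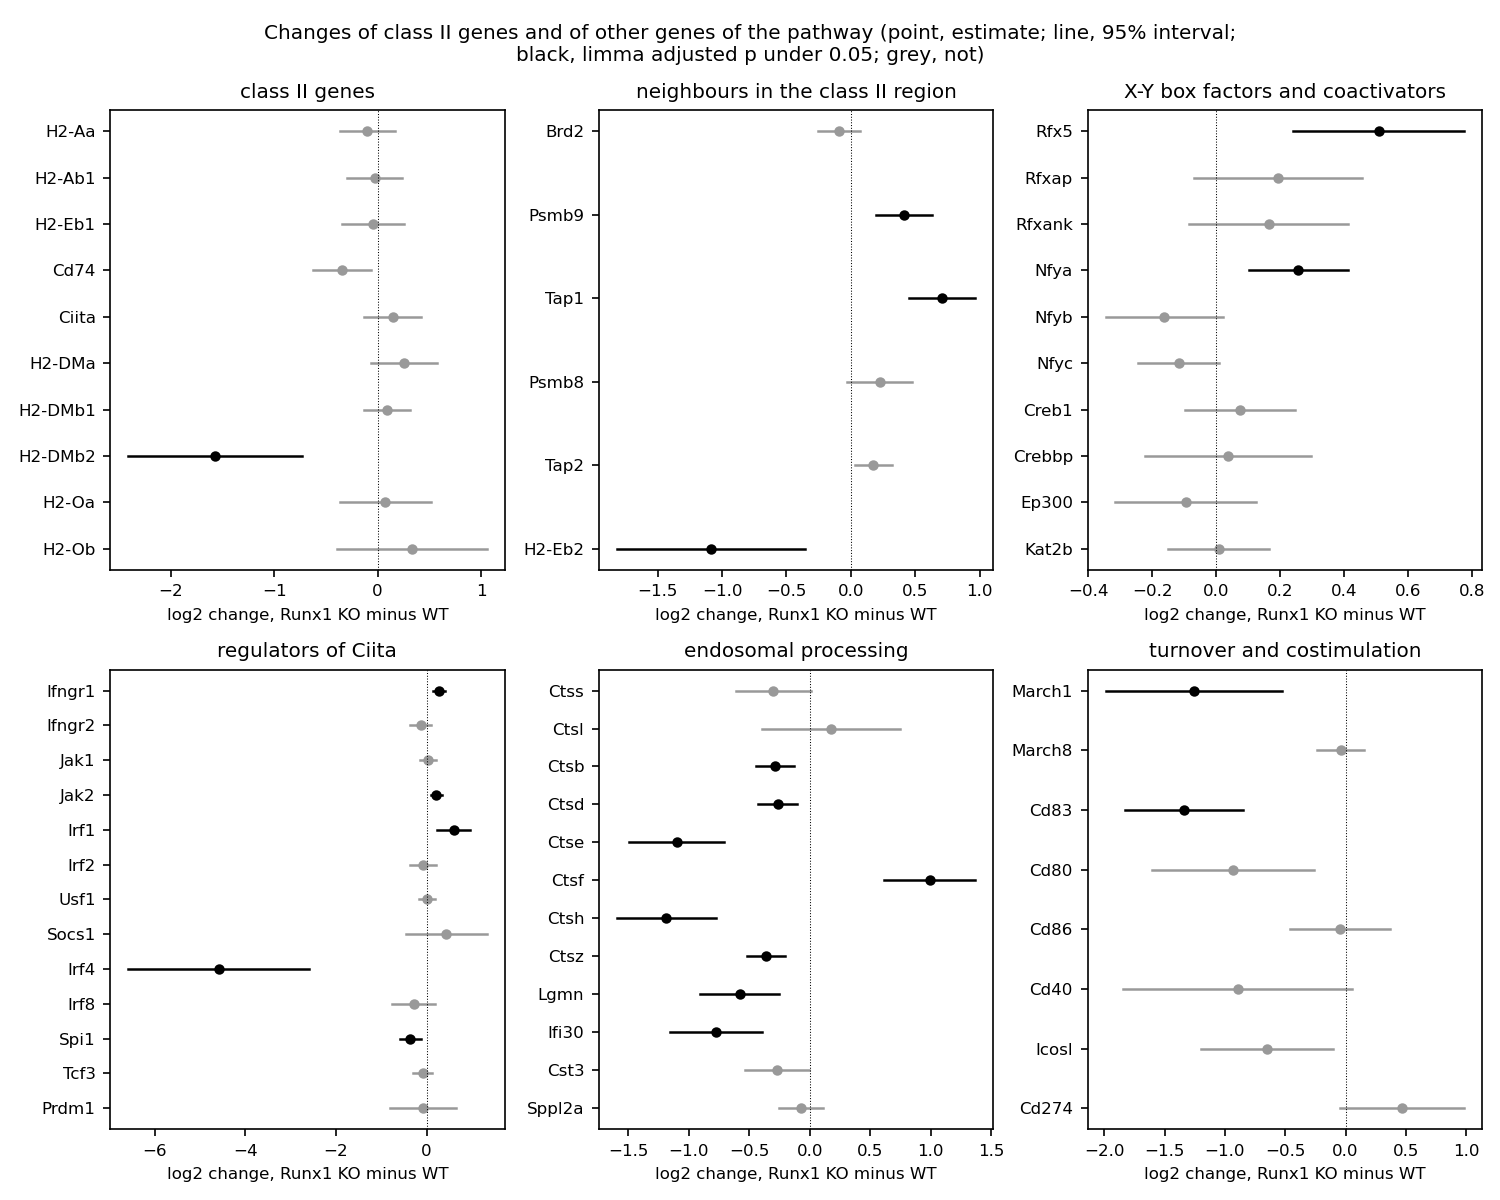
Log2 changes (Runx1 KO minus WT, horizontal axes, each panel with its own range) of the class II genes and of 5 lists of other pathway genes; points are limma estimates, lines 95% intervals, black an adjusted p under 0.05 and grey not. In the class II panel 1 of 10 genes is black, against 8 of 12 in the panel of endosomal processing; a gene not reported here is left out of the panel of Ciita regulators.

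Markers of the cells that carry class II molecules differed widely between the libraries. Of 12 B cell markers 10 fell and 0 rose, where 11.3% of all genes tested fell. Their summed level was 30982, 7695 and 12852 normalised reads in WT replicates 1 to 3 and 2913, 1143 and 1082 in Runx1 KO replicates 1 to 3. Pax5, the factor that fixes B cell identity, had 5967, 1304 and 2359 against 325, 27.7 and 27.8. Ms4a1, which encodes CD20, had 4035, 941 and 1364 against 82.6, 21.8 and 9.95, and Cd79a, a chain of the B cell receptor complex, fell by 5.18 on the log2 scale (limma adjusted p 0.013), a call lost without Runx1 KO replicate 2 (0.0522). In bulk RNA, fewer cells of a type and less RNA per cell cannot be told apart. None of the B cell markers was at 0 in any library.

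The antigen-binding chains did not share the library order of these markers under the label WT. Among the libraries labelled WT the B cell sum differed by 4.03 times between replicates 1 and 2, where H2-Aa differed by 1.05 times over the group. From the mean of WT to that of Runx1 KO the B cell sum went to 0.0997 of its level, and H2-Aa, H2-Ab1 and H2-Eb1 to 0.942, 0.989 and 0.981. H2-DMb2, H2-DMa, H2-Oa and H2-Ob had the same order of libraries within each group as the B cell sum and also as the sums of plasmacytoid and of conventional dendritic cell markers, replicates 1, 3 and 2 under the label WT and 1, 2 and 3 under the label Runx1 KO. The sums of the genes upstream of Ciita and of the turnover and costimulation genes had this order too. Ly6d, a plasmacytoid marker that early B cells also express, and Flt3, a conventional marker also on the stem and progenitor list, each had this order themselves. Both are large parts of the dendritic sums, and the order of those sums without them was not computed. The share of all genes with this order was not computed. The part of B cell RNA in the fall of H2-DMb2 was not tested.

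Dendritic cell markers varied less evenly. The counts of calls given here stand beside 21.9% of all genes tested. Of 8 plasmacytoid dendritic cell markers 3 fell and 0 rose, with sums of 4636 to 7219 normalised reads under the label WT and of 3242 to 4500 under the label Runx1 KO, and Klk1 was at 0 in Runx1 KO replicate 3. Among the 3 that fell was Ly6d, which early B cells also express. It had 2832, 690 and 1118 normalised reads under the label WT and 122, 25.8 and 19.9 under the label Runx1 KO. The plasmacytoid sums include Ly6d, and whether they separate without it was not computed. Siglech, the defining lectin of plasmacytoid dendritic cells, had 532, 398 and 562 against 331, 27.7 and 17.9, and did not pass by limma (adjusted p 0.0609). Of the 9 conventional dendritic cell markers tested 1 fell, Ccr7, which other lymphoid cells also express. The sums overlapped, at 4074 to 5326 against 3658 to 4900. Flt3, which is also on the stem and progenitor list, was the largest part of these sums in every library. It had 1944, 1458 and 1661 normalised reads against 2457, 2435 and 1711. Sums without Flt3 were not computed, so the overlap holds only for the list with it. Zbtb46, a factor of conventional dendritic cells, had 238, 344 and 200.5 against 236, 307 and 499 (limma adjusted p 0.405), and Itgax had 968, 1216 and 1077 against 909, 398 and 621 (0.0703). Xcr1, a receptor of cross-presenting dendritic cells, had 37.6, 98.9 and 44.1 against 87.9, 51.5 and 18.9, and its log2 change of -0.30 (limma adjusted p 0.744) turned positive without WT replicate 2 or Runx1 KO replicate 3. Runx1 KO replicate 1 was highest of its group in the B cell, plasmacytoid, conventional dendritic and monocyte sums and in 9 of the 10 class II genes, all but Ciita, and these relations were not tested. Of 6 T cell markers 0 were called by limma (2 at an unadjusted p under 0.05), with a median log2 change of -1.45, 6 of 6 below 0 and sums of 929 to 1128 against 297 to 971 normalised reads, and of 10 stem and progenitor markers 7 rose and 0 fell.

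**Figure D4:**
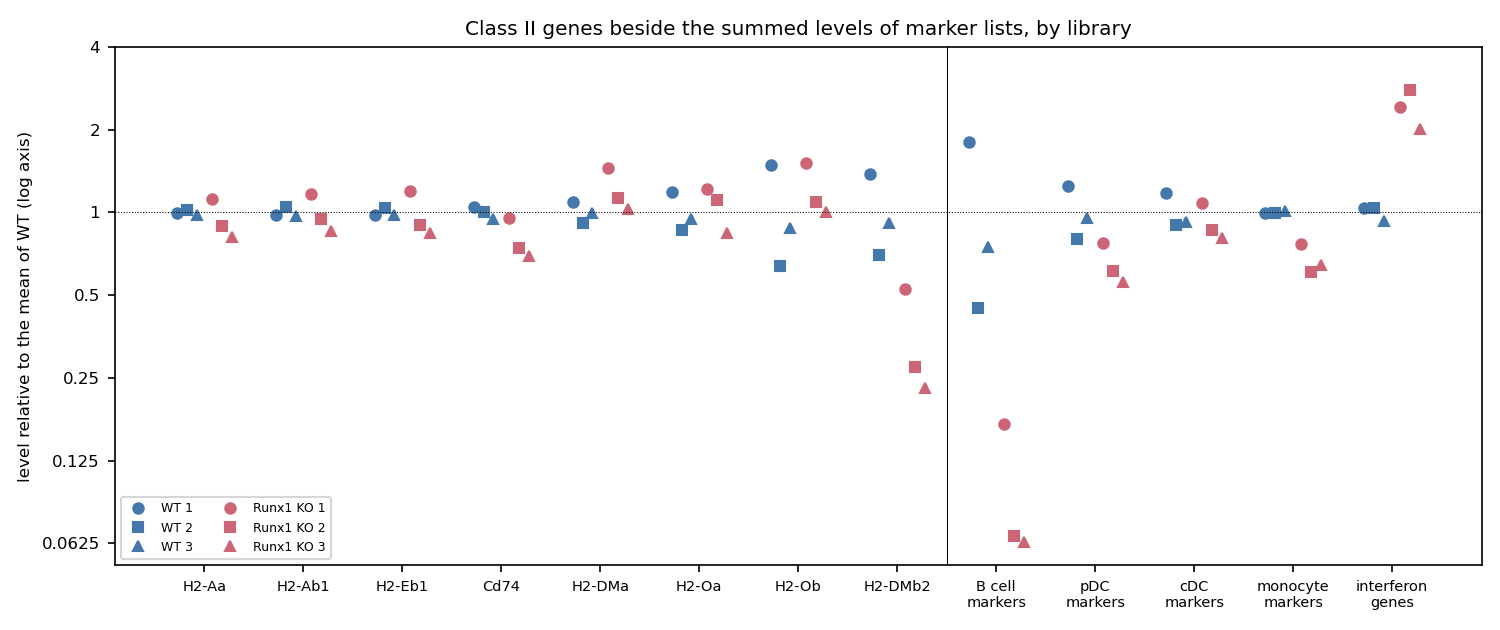
Level of 8 class II genes and of 5 marker or response lists (summed) in each library, relative to the mean of the libraries labelled WT, on a log axis (blue WT, red Runx1 KO; circle, square and triangle for replicates 1, 2 and 3; pDC and cDC, plasmacytoid and conventional dendritic cells). The B cell sum falls to 0.0997 of its WT mean while H2-Aa stays at 0.942, and H2-DMb2 at 0.344 lies between. The pDC sum includes Ly6d, which early B cells also express, and the cDC sum includes Flt3, also a stem and progenitor marker.

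Outside the pathway, the 8 genes whose log2 profile over the 6 libraries was most like the mean profile of H2-Aa, H2-Ab1 and H2-Eb1, among 11190 non-member genes with a mean of at least 100 normalised reads, included Cdk5rap3 (Pearson r 0.989), Chrac1, Ddx52, Ccl5, Rps28, Tpt1-ps3 and, the eighth in order, Gm15427 (0.9605). None of these 8 was called by limma, at adjusted p values of 0.461 or above. Ccl5, a chemokine of T cells and other leukocytes, had 369, 375 and 351 normalised reads under the label WT and 630, 171 and 135 under the label Runx1 KO, with replicate 1 highest as in the antigen-binding chains but over a wider range.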

How the data were processed

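Poly-A RNA of c-Kit-positive bone marrow cells was sequenced as strand-specific libraries, per the labels' protocols. HISAT2, HTSeq 0.9.1 and the builds mm10 and GRCm38 are named by the submitters' processing notes; the annotation, the strand setting and the normalization are not given in the sources used here. The deposited values are a signal per gene that is not whole: in each of the 6 files 100% of values were whole multiples of the smallest positive value (tolerance 0.001), so that they are read counts divided by a size factor, from 0.956 to 1.04 per library. Read counts recovered in this way served the alternatives. The size of 3 reads was 2.88 to 3.14 normalised reads, for counting error only.

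Symbols were matched by Ensembl identifier (20077 of 20097), H2-Ea as H2-Ea-ps and Marchf1 and Marchf8 as March1 and March8, and coordinates and exon lengths came from GENCODE M21 on GRCm38, the build named in the notes. Genes passing filterByExpr by group (minimum count 10, minimum total 15) were tested with limma 3.58.1 (lmFit, eBayes with a mean trend) on log2(value + 1), with no term but group; p-values were two-sided, adjusted by Benjamini and Hochberg's method over 15410 genes and called under 0.05. Alternatives used edgeR 4.0.16 and DESeq2 1.42.0 in R 4.3.3. The scripts were tested on simulated data. The members and lists were chosen with earlier results of these data known. Named genes were the 10 members, Runx1, up to 4 called genes with the largest change per pathway list, defining markers of class II-bearing cells and the 8 genes of most similar profile. Other genes named are said to be so or are given for position, overlap or a list's content (Kit, Dexi, Brd2, Btnl2, Ctss, Cd86, Ccr7, Klk1, Ly6d, Flt3). Some genes that this rule names are not reported here.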

Additional observations from a re-analysis of the deposited data

How the results depend on the processing

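Over the 11 fits with all libraries, H2-DMb2 ran from -1.58 to -1.49 (highest adjusted p 0.0297) and H2-Aa from -0.10 to -0.02. The number of class II genes called, 1 and lower in limma, was 2 with DESeq2, Cd74 being the addition, and 0 to 3 when a library was left out. It was 2, both lower, with the replicate block in limma (Cd74 log2 change -0.34, adjusted p 0.0264) and 2 with the block in edgeR, a fit added after the data were seen. Over all genes tested DESeq2 called 3911, limma with the block 3843 and edgeR with the block 3685, against 3370 in limma without it. The numbers pair the libraries only by name: same-numbered deviations correlated at 0.29, 0.13 and -0.01, and not every library correlated best with its own number.

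Leaving out a library gave 1349 to 3551 calls over all genes (627 to 1627 higher, 722 to 1924 lower) against 3370, and 7 to 23 calls in the 5 pathway lists (3 to 7 higher, 4 to 16 lower) against 21. Changes that passed in no setting reversed: H2-Ab1 to 0.0548 and H2-Eb1 to 0.0369 with library totals, and, when a library was left out, H2-Ab1 (range -0.155 to 0.0726), H2-Eb1 (-0.201 to 0.0544), H2-Oa (-0.0370 to 0.228) and Xcr1 (-0.788 to 0.292); the cause was not tested. Depth limits genes of few reads, such as H2-Eb2 at 16.8 to 61.4 normalised reads per library.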
